A study of Homo sapiens with 48 samples.

Results

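Vehicle-treated HK-2 cells of the Fk and Ra set were compared at 48 h and at 12 h. The 6 arrays were chosen by their titles: 3 are labelled as 48 h controls and 3 as 12 h controls for Fk and Ra, out of 48 arrays in the series. HK-2 cells come from the proximal tubule of a human kidney and were immortalised with papillomavirus genes. Both groups received the vehicle of the Fk and Ra experiment and no compound, so they differ by the time after vehicle was added. The cells had been seeded 24 h earlier in 6-well plates, in 2 ml of medium per well, and were treated at about 90% confluence. The medium held 5 mM glucose, 10 ng/ml EGF, hydrocortisone, insulin, transferrin and selenite, and no serum is listed. What the vehicle was, how much was added and whether the medium was changed between 12 h and 48 h are not stated in the labels. The series was made to find expression patterns of nephrotoxic compounds, and its other arrays hold CsA, Fk, Ra and Nnm treatments with their own controls. The labels call the 3 arrays of a group biological replicates without saying whether they came from separate cultures. P-values rest on the spread between arrays within a group, pooled over all 48 arrays of the series, not on these 6 alone.

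Cells that stay on a plate meet a changing environment: they use up nutrients, secrete products into a fixed volume and touch more neighbours. Shortage of an amino acid, or unfolded protein in the endoplasmic reticulum (ER), activates kinases that phosphorylate the initiation factor eIF2alpha, which slows translation but favours that of the transcription factor ATF4. ATF4 and its partner CHOP (gene DDIT3) then induce amino acid synthesis, amino acid transport and tRNA charging genes, while ATF6 and XBP1 induce ER chaperones. Genes of DNA replication and of mitosis are transcribed in cycling cells, under E2F factors and the MuvB complexes, and are low in cells that have left the cycle.

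Levels are log2 values as deposited. A change is the log2 difference between the means of 48 h and 12 h, n = 3 arrays per group. Its SE is from limma, with the spread within groups pooled over all 48 arrays of the series. A gene is written as having risen, fallen or been called where the Benjamini-Hochberg adjusted p of limma lay under 0.05 over the 11356 genes tested. The 3 arrays at 12 h correlated with each other by 0.9921 to 0.9936, those at 48 h by 0.9702 to 0.987, and arrays of different times by 0.9371 to 0.9743. The median SD of a gene was 0.137 at 12 h and 0.226 at 48 h, so the later group was the more variable. Of 16 proximal tubule epithelium markers on the array, 6 lay above log2 4 in at least 3 of the 6 arrays: PAX8, KRT8, KRT18, EPCAM, CDH2 and CDH6. The endocytic receptors LRP2 and CUBN, the water channel AQP1 and the phosphate and glucose carriers SLC34A1 and SLC5A2 did not. Nor did the brush border enzyme genes ANPEP, ALPL and GGT1. The markers present are epithelial and lineage markers, so the proximal tubule origin rests on the identity of the line, not on these levels. Of 10 leukocyte markers none did, of 12 endothelial markers 1 did (PECAM1), of 12 markers of other nephron segments 2 did (AQP3 and SCNN1A), and of 12 fibroblast markers 5 did (COL1A1, DCN, LUM, ACTA2 and TAGLN) while COL1A2, COL3A1, PDGFRA and POSTN did not. The log2 of the summed fibroblast markers ran from 10.58 to 11.17 at 12 h and from 10 to 11.2 at 48 h.

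A large share of the transcriptome differed between 12 h and 48 h. Of the 11356 genes, 2252 (19.8%) were called, 1149 (10.1%) higher and 1103 (9.71%) lower at 48 h, and 3699 had an unadjusted p under 0.05. Levels of both groups did not overlap for 5415 genes (47.7%). The median change over all genes was 0.02, on values that GCRMA had already aligned between arrays. Among called genes, 591 rose and 479 fell at least 2-fold, 114 rose and 53 fell at least 4-fold, and 26 rose and 9 fell at least 8-fold. With each of the 6 arrays left out in turn, 895 genes stayed called in the same direction (452 higher and 443 lower). The counts of higher and lower genes fell to 701 and 825 without 12 h replicate 2, to 759 and 707 without 12 h replicate 3, to 563 and 545 without 48 h replicate 1 and to 721 and 706 without 48 h replicate 2.

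**Figure D1:**
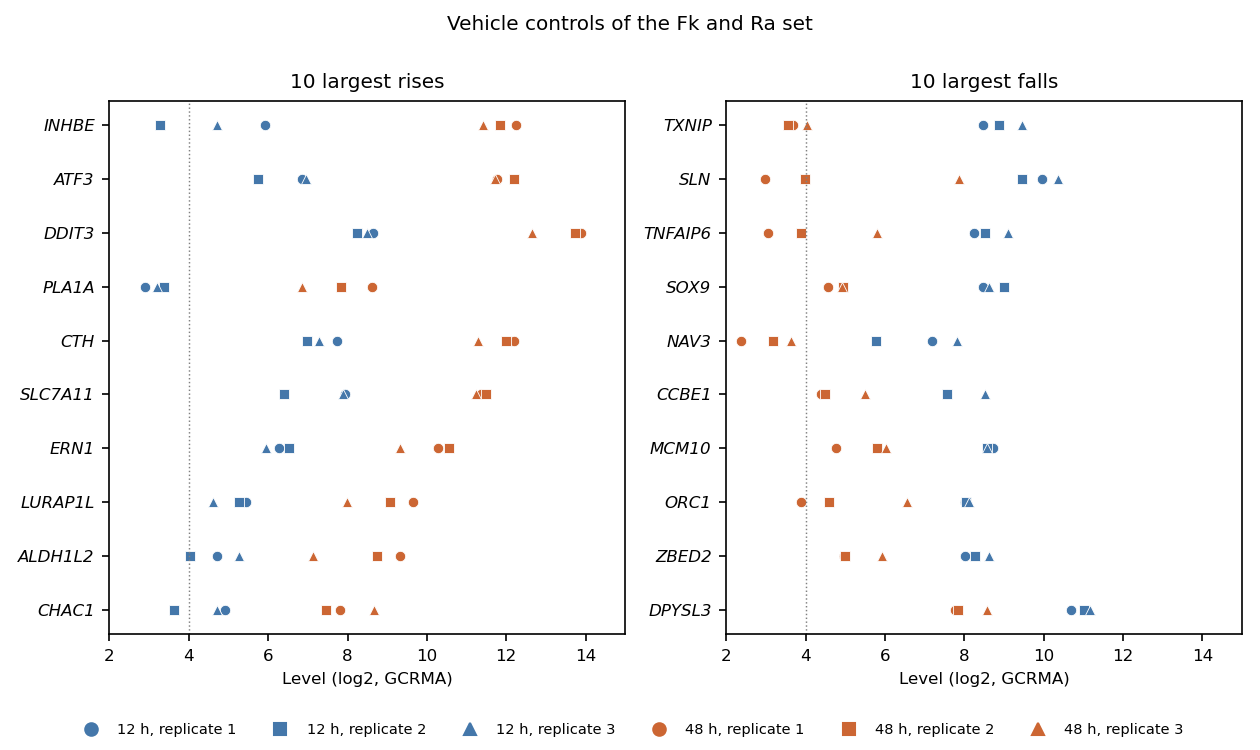
Levels (log2, x axis) of the 10 genes that rose most and the 10 that fell most among called genes whose groups do not overlap, in each of the 6 arrays. Blue symbols are 12 h and orange symbols 48 h, the symbol shape is the replicate, and the dotted line is the low filter at log2 4. INHBE moved from between 3.27 and 5.92 to between 11.41 and 12.26, and TXNIP from between 8.47 and 9.45 to between 3.55 and 4.04.

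Most targets of ATF4 and CHOP rose, and they made up 9 of the 26 genes that rose at least 8-fold. Of 39 listed, 37 were above the low filter. Called higher were 29 (78.4%, against 10.1% of all genes) and none lower, with a median change of 1.67 against 0.02 over all genes. The promoters of 29 of the 37 were found in RefSeq (GRCh38.p14), with 1 entry per gene searched over the 250 bases before the transcription start. The composite element of C/EBP and ATF proteins, searched as TGATGNAAN on both strands, was present in 3 of them (10.3%), against 130 of the 9370 promoters of tested genes (1.39%). These 3 are shown with the match in capitals, since they belong to genes among the strongest risers: ASNS (minus strand, chr7:97872443-97872501), ATF3 (plus strand, chr1:212565191-212565249) and CHAC1 (plus strand, chr15:40953236-40953294), where the match lies on the opposite strand.
ASNS: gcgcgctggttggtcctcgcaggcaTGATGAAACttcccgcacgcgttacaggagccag
ATF3: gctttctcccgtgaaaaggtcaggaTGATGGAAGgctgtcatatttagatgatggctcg
CHAC1: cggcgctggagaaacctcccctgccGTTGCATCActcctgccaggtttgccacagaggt
A match is a description of the sequence and does not show that a factor was bound.

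INHBE, which encodes the beta E subunit of the activin family, showed the largest rise of all. Its levels were 5.92, 3.27 and 4.72 in replicates 1 to 3 at 12 h and 12.26, 11.85 and 11.41 at 48 h, a change of 7.2 ± 0.98 (147-fold, adjusted p = 1.16e-05). All 3 later arrays lay far above all 3 earlier ones. ATF3, a stress-induced repressor of the ATF family, stood at 6.85, 5.74 and 6.96 and then at 11.77, 12.20 and 11.72 (5.37 ± 1.21, adjusted p = 0.00202). DDIT3 stood at 8.64, 8.24 and 8.49 and then at 13.90, 13.73 and 12.66 (4.97 ± 0.79, adjusted p = 4.88e-05), the lowest of the later values again being that of replicate 3. The gene of ATF4 itself, which is controlled mostly in translation, rose less, by 1.13 (adjusted p = 0.00386).

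Amino acid and one-carbon metabolism made up much of the list. CTH, the enzyme that releases cysteine from cystathionine, rose from 7.73, 6.98 and 7.28 to 12.19, 12.00 and 11.29 (4.5 ± 0.76, adjusted p = 0.000112). SLC7A11, the light chain of the cystine and glutamate exchanger, rose from 7.95, 6.39 and 7.88 to 11.37, 11.50 and 11.25 (3.97 ± 0.75, adjusted p = 0.000379), and its heavy chain SLC3A2 rose by 2.67. ALDH1L2, a mitochondrial folate enzyme, rose from 4.70, 4.03 and 5.28 to 9.33, 8.74 and 7.12 (3.73 ± 0.59, adjusted p = 5.59e-05), while its other 2 probe sets changed by 0.23 and 0.51. ASNS, asparagine synthetase, rose from 9.36, 8.25 and 9.56 to 12.38, 12.56 and 11.68 (3.15 ± 0.63, adjusted p = 0.000616). CHAC1, which degrades glutathione, rose from 4.91, 3.63 and 4.72 to 7.80, 7.47 and 8.66 (3.56 ± 0.92, adjusted p = 0.00583). The calls of these genes held whichever array was left out. The groups did not overlap in any of them, as in 47.7% of all genes. The rule for the largest rises took only such genes, so for those the choice fixed it. The serine synthesis genes PHGDH (1.27) and PSPH (1.47) and the mitochondrial SHMT2 (1.41), MTHFD2 (1.2) and PCK2 (2.13) rose as well. The feedback genes TRIB3 (1.96) and SESN2 (2.28) and the secreted STC2 (3.04) were also called. GDF15, a stress cytokine, rose from 11.08, 10.25 and 10.34 to 13.10, 13.15 and 12.64 (2.41 ± 0.7, adjusted p = 0.0133), a call lost without 12 h replicates 2 or 3 or 48 h replicates 1 or 2. The 8 that missed the threshold included PSAT1 (0.62, adjusted p = 0.0594) and the transporters SLC7A5 (1.79, adjusted p = 0.22), SLC1A5 (0.45, adjusted p = 0.556) and SLC1A4 (1.12, adjusted p = 0.0808).

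Cytosolic aminoacyl-tRNA synthetases, which charge tRNAs with amino acids, mostly rose too. Of 20 listed, 17 were above the low filter, 10 were called higher and 1 lower, with a median of 0.67. These are 58.8% and 5.88%, against 10.1% and 9.71% of all genes. AARS1 for alanine stood at 9.55, 9.26 and 9.67 and then at 12.18, 11.67 and 10.85 (2.07 ± 0.35, adjusted p = 0.000102). GARS1 for glycine (1.7), WARS1 for tryptophan (1.67), CARS1 for cysteine (1.61) and SARS1 for serine (1.59) followed. HARS1 for histidine fell, by 0.68 (adjusted p = 0.00192), and KARS1, RARS1 and FARSB lay between -0.33 and -0.17 without passing the test.

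Chaperone and degradation genes of the ER rose in part, and unevenly between arrays. Of 30 listed, 29 were above the low filter. Called higher were 14 (48.3%, against 10.1% of all genes) and none lower, with a median of 1.21. The median over these genes, relative to the 12 h mean, was 1.97 in 48 h replicate 1, 1.26 in replicate 2 and 0.08 in replicate 3, so replicate 3 was near the 12 h level. The count was 7 without 48 h replicate 1, 9 without 48 h replicate 2 and 23 without 48 h replicate 3. DNAJB9, a co-chaperone, showed this in its values: 8.81, 8.26 and 8.55 at 12 h and 12.57, 12.51 and 9.92 at 48 h (3.13 ± 0.53, adjusted p = 0.000112). HERPUD1, a factor of ER-associated degradation, stood at 10.50, 9.70 and 10.24 and then at 13.96, 13.69 and 12.03 (3.08 ± 0.5, adjusted p = 6.04e-05). HSPA5, the chief ER chaperone BiP, stood at 14.05, 13.15 and 13.77 and then at 15.68, 15.66 and 14.53 (1.64 ± 0.32, adjusted p = 0.000599). This probe set lies near the highest value of the file, 16.11, and the other probe set of HSPA5 changed by 3.28. The other probe set of HERPUD1 changed by 0.97. The stress sensor ERN1, or IRE1, rose from 6.26, 6.53 and 5.95 to 10.29, 10.57 and 9.32 (3.81 ± 0.76, adjusted p = 0.000679), while its other probe set changed by 0.26. The transcription factors XBP1 (2.07) and ATF6 (1.48) rose. The abundant lectin chaperones CALR (0.35, adjusted p = 0.394) and CANX (0.45, adjusted p = 0.074) missed the threshold.

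The ER stress response element, searched as CCAAT and, after any 9 bases, CCACG on both strands, was present in 6 of the 25 promoters found for this list (24%), against 14 of 9370 (0.149%). Among the 13 called members with a promoter it was present in 3, which are shown for that reason with the element in capitals: HSPA5 (minus strand, chr9:125241366-125241434), XBP1 (minus strand, chr22:28800578-28800646) and HSP90B1 (plus strand, chr12:103930296-103930364). In HSP90B1 the match shown lies on the opposite strand, and a further match on the gene's own strand lies outside the stretch. HSP90B1, or GRP94, rose by 0.89 (adjusted p = 0.0321), and it and XBP1 were named for this element after their values were seen.
HSPA5: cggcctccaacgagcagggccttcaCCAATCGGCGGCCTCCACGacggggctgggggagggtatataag
XBP1: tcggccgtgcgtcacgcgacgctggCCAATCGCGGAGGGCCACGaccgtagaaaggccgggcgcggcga
HSP90B1: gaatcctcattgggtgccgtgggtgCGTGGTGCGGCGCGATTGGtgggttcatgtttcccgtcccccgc
The element begins 66 bases before the start in HSPA5 and 52 before it in XBP1.

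**Figure D2:**
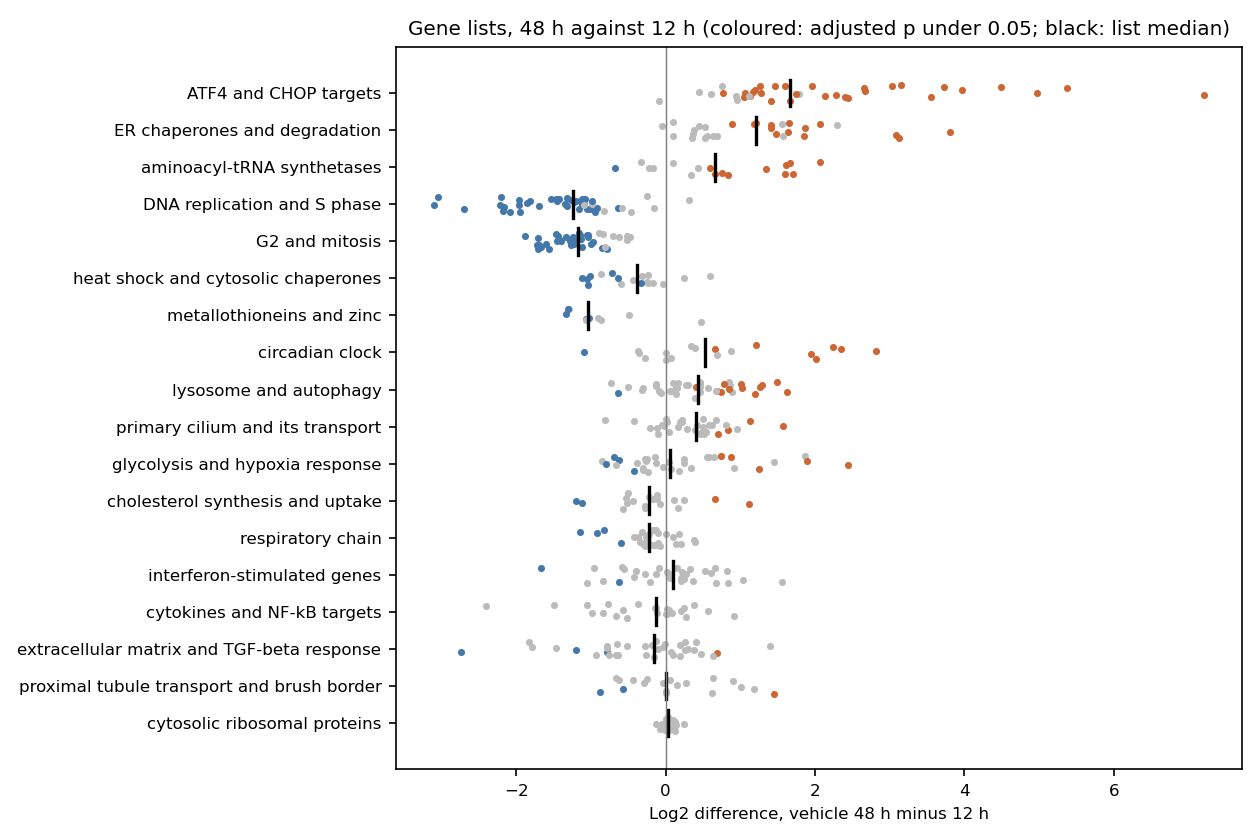
Log2 difference between 48 h and 12 h (x axis) for each gene above the low filter in 18 gene lists (y axis). Orange points were called higher and blue points lower, grey points missed the threshold, and the black bar is the list's median. The bars stand at 1.67 for ATF4 and CHOP targets, at -1.24 for DNA replication and at 0.04 for ribosomal proteins.

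Most genes of DNA replication and of mitosis fell. Of 45 listed genes of DNA replication and S phase, 44 were above the low filter, 36 were called lower and none higher, with a median of -1.24. Of 40 genes of G2 and mitosis, all above the filter, 32 were called lower and none higher, with a median of -1.17. The shares called lower were 81.8% and 80%, against 9.71% of all genes. The medians in 48 h replicates 1 to 3 were -1.7, -1.26 and -0.82 for the first list and -1.64, -1.17 and -0.65 for the second, in the same order as for the ER genes. The mitosis count was 21 without 12 h replicate 1, 10 without 48 h replicate 1 and 20 without 48 h replicate 2. In RNA of a whole culture, fewer cycling cells and less of these transcripts per cell cannot be told apart.

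MCM10, an origin firing factor, stood at 8.74, 8.57 and 8.57 at 12 h and at 4.76, 5.80 and 6.03 at 48 h (-3.09 ± 0.5, adjusted p = 6.29e-05). ORC1, the largest subunit of the origin recognition complex, stood at 8.03, 8.03 and 8.11 and then at 3.87, 4.60 and 6.55 (-3.05 ± 0.5, adjusted p = 6.99e-05). Cyclin E2 (CCNE2), which drives entry into S phase, stood at 9.86, 9.98 and 9.81 and then at 6.80, 7.10 and 7.64 (-2.7 ± 0.39, adjusted p = 1.99e-05). The values of these genes were close together at 12 h. The groups did not overlap, as in 47.7% of all genes, and the rule for the largest falls took only such genes. Ribonucleotide reductase RRM2 (-2.08), the flap endonuclease FEN1 (-1.54), the sliding clamp PCNA (-1.12) and 7 MCM genes, MCM10 among them, also fell. CDC6 was the one member with a positive change, 0.32 (adjusted p = 0.685).

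Among the mitotic genes, PLK1, the polo-like kinase, stood at 8.74, 9.26 and 9.27 and then at 6.21, 6.94 and 8.46 (-1.88 ± 0.44, adjusted p = 0.00249). ANLN, an actin-binding protein of the cleavage furrow, stood at 12.42, 12.54 and 12.56 and then at 10.04, 10.67 and 11.66 (-1.71 ± 0.39, adjusted p = 0.00191). The proliferation marker MKI67 stood at 11.30, 11.10 and 11.07 and then at 9.16, 9.78 and 10.52 (-1.34 ± 0.37, adjusted p = 0.00923). Cyclin B1 (CCNB1) stood at 12.70, 12.78 and 12.72 and then at 10.86, 11.56 and 12.04 (-1.25 ± 0.32, adjusted p = 0.00603). In all 4 the lowest value was that of 48 h replicate 1 and the later value nearest to 12 h that of replicate 3, and the calls of MKI67 and CCNB1 were lost without 48 h replicate 1. The other 3 probe sets of MKI67 changed by -2.9 to -1.57, and the other probe set of CCNB1 by -0.8.

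The genes that set the G1 phase moved in both directions: of 17 above the low filter, 5 were called lower and 2 higher. These are 29.4% and 11.8%, against 9.71% and 10.1% of all genes. SKP2, the ubiquitin ligase subunit that removes the inhibitor p27, fell from 10.22, 10.19 and 10.27 to 7.37, 6.62 and 8.16 (-2.84 ± 0.4, adjusted p = 1.64e-05). Cyclin D1 (CCND1) fell from 9.48, 9.69 and 9.62 to 6.39, 6.93 and 7.95 (-2.5 ± 0.6, adjusted p = 0.00324). The inhibitor CDKN1A, or p21, rose from 10.82, 10.45 and 10.08 to 12.02, 11.65 and 11.32 (1.22 ± 0.44, adjusted p = 0.0458), close to the threshold and lost without any 12 h array or without 48 h replicate 1 or 2, while CDK4 rose by 0.44. Of 20 p53 targets above the filter, 6 were called higher and 2 lower, with a median of 0.25. That is 30% higher and 10% lower, against 10.1% and 9.71% of all genes. GADD45A, a growth arrest gene that ATF4 also induces, rose from 10.32, 9.80 and 10.52 to 12.13, 12.32 and 12.59 (2.13 ± 0.43, adjusted p = 0.000727), and TP53I3 fell by 1.18 (adjusted p = 0.00138). The count of p53 targets called higher was 3 without 12 h replicate 1 and 2 without 12 h replicates 2 or 3 or 48 h replicates 1 or 2.

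The cell cycle homology region, searched as TTTGAA on both strands, was found in 16 of the 31 promoters available for the mitosis list (51.6%), against 776 of 9370 (8.28%). It was present in 14 of the 25 called members with a promoter. The E2F site, searched as TTTNNCGC on both strands, was found in 16 of 39 promoters of the replication list (41%), against 863 of 9370 (9.21%), and in 13 of 31 called members. Of the 46 matches of all motifs in called members, 0 overlapped a match of another motif. Shown are the mitotic genes described above that hold a match and, named for their match after their values were seen, the replication genes MCM6 (-1.19, adjusted p = 0.00665) and PCNA, with matches on either strand in capitals.
PLK1: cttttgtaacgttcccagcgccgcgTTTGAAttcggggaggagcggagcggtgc
ANLN: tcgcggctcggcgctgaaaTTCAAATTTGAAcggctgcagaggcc
MKI67: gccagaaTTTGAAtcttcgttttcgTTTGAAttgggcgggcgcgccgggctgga
MCM6: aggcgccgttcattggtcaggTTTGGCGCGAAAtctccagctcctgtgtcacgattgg
PCNA: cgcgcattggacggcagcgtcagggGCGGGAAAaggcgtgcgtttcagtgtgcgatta
They lie at chr16:23678835-23678888 (plus strand), chr7:36389817-36389861 (plus), chr10:128126424-128126477 (minus), chr2:135876497-135876554 (minus) and chr20:5126649-5126706 (minus) of GRCh38.p14. In ANLN 2 matches adjoin each other on opposite strands, and in MKI67 there are 2 on the same strand.

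TXNIP was among the genes with the largest falls. It encodes an arrestin-like protein that binds thioredoxin and limits glucose uptake, and its transcription follows intracellular glucose. Its levels were 8.47, 8.87 and 9.45 at 12 h and 3.67, 3.55 and 4.04 at 48 h (-5.18 ± 0.76, adjusted p = 2.14e-05). The 3 later values lay at or below the low filter, so the size of the fall, and its order relative to SLN described below, is uncertain. Of the 13 genes above the filter in the list of TXNIP, other arrestin relatives and glucose sensing, 2 fell and 1 rose. That is 23.1% called, near the 19.8% of all genes, and the median was 0.19. KLF10, a Kruppel-like repressor, fell from 10.18, 10.25 and 10.08 to 8.62, 9.76 and 9.49 (-0.88 ± 0.29, adjusted p = 0.0273), a call lost without any 12 h array or without 48 h replicate 1. The repressor HBP1 rose from 9.21, 9.05 and 8.83 to 10.29, 10.09 and 9.60 (0.97 ± 0.2, adjusted p = 0.00107). The E-box CACGTG, which MondoA and its relatives can bind, lay in 3 of 10 promoters found for this list (30%), against 864 of 9370 (9.22%), and in none of the 2 called members with a promoter.

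Of 34 glycolysis and hypoxia genes above the low filter, 5 were called higher and 4 lower (26.5% in either direction, against 19.8% of all genes), with a median of 0.06. VEGFA, a vascular growth factor that both ATF4 and hypoxia-inducible factors induce, rose from 10.00, 10.03 and 9.96 to 12.67, 12.53 and 12.11 (2.44 ± 0.42, adjusted p = 0.000146). NDRG1 rose from 8.81, 8.38 and 8.59 to 11.09, 10.42 and 9.97 (1.9 ± 0.45, adjusted p = 0.00305), MXI1 by 1.26, KDM3A by 0.88 and PDK1 by 0.74. The glycolytic enzymes PGK1 (-0.42), PGAM1 (-0.63) and PKM (-0.69) and the oxygen sensor EGLN3 (-0.79) fell. GAPDH, near the top of the scale, stood at 15.32, 15.31 and 15.34 and then at 15.20, 15.24 and 15.43 (-0.03 ± 0.09, adjusted p = 0.846). The count called lower was 2 without 12 h replicate 1, 1 without 12 h replicate 3, 0 without 48 h replicate 1 and 1 without 48 h replicate 2, and the count called higher was 3 without 12 h replicate 2 or 48 h replicate 1.

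Lysosome and autophagy genes rose in part. Of 40 above the low filter, 12 were called higher (30%, against 10.1% of all genes), with a median of 0.43. The galactosidase GLA (-0.64) was the 1 called lower. WIPI1, an early autophagosome protein, stood at 8.32, 8.20 and 8.75 and then at 11.05, 10.01 and 9.08 (1.62 ± 0.51, adjusted p = 0.0226), a call lost without 12 h replicates 1 or 2 or 48 h replicates 1 or 2. CTSH, a cathepsin, stood at 10.28, 10.16 and 9.66 and then at 11.92, 11.39 and 11.28 (1.5 ± 0.39, adjusted p = 0.00667), a call lost without 48 h replicate 1. The cholesterol exporter of lysosomes NPC1 rose by 1.29, a call lost without 12 h replicates 2 or 3 or 48 h replicates 1 or 2, and its other probe set changed by 0.2. The autophagosome genes MAP1LC3B (1.26) and GABARAPL1 (1.19) and the receptors NBR1 (0.79) and TAX1BP1 (0.84) rose as well. The count called higher was 7 without 12 h replicate 3 or 48 h replicate 2 and 5 without 48 h replicate 1. KLHL24, a ubiquitin ligase adaptor in the list of FOXO and insulin feedback genes, rose from 7.30, 7.48 and 7.15 to 9.93, 10.22 and 9.29 (2.5 ± 0.32, adjusted p = 5.88e-06), and its other 4 probe sets changed by 0.12 to 2.41. AKT1, the insulin-responsive kinase of that list, fell from 9.01, 9.33 and 9.35 to 8.19, 7.93 and 8.46 (-1.04 ± 0.2, adjusted p = 0.000495).

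Output genes of the circadian clock also differed. Of 18 above the low filter, 7 were called higher (38.9%, against 10.1% of all genes) and 1 lower, with a median of 0.53. CIART, a repressor of the clock, stood at 4.84, 4.16 and 4.48 and then at 7.19, 7.21 and 7.52 (2.82 ± 0.69, adjusted p = 0.00398). BHLHE41, or DEC2, stood at 8.14, 8.10 and 7.87 and then at 10.13, 10.31 and 10.70 (2.35 ± 0.36, adjusted p = 3.54e-05), and NFIL3 stood at 9.07, 8.79 and 9.15 and then at 11.10, 11.45 and 11.17 (2.24 ± 0.34, adjusted p = 3.54e-05). Unlike the ER genes, these did not have 48 h replicate 3 nearest to 12 h. DBP, whose 12 h values of 3.59, 2.96 and 2.86 were below the low filter, reached 5.96, 5.08 and 4.41 (2.01 ± 0.6, adjusted p = 0.0159), a call lost without 12 h replicates 2 or 3 or 48 h replicate 1. The nuclear receptor NR1D2 rose by 1.94. BMAL1 rose by 0.66 while its relative BMAL2 fell by 1.09, and PER2 overlapped between groups (0.88 ± 0.53, adjusted p = 0.258). Without 12 h replicate 2 the count called higher was 4. The arrays were taken at 2 times 36 h apart, which cannot show a rhythm.

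Several further lists held genes called lower. Of 18 heat shock and cytosolic chaperone genes above the low filter, 7 were called lower (38.9%, against 9.71% of all genes) and none higher, with a median of -0.38: DNAJA1, an HSP70 co-chaperone, stood at 13.21, 13.16 and 13.17 and then at 12.23, 12.09 and 11.88 (-1.11 ± 0.18, adjusted p = 6.09e-05), and HSPE1, the mitochondrial HSP10, fell by 1.04. The count was 4 without 12 h replicates 1 or 3 or 48 h replicate 1. Of 10 metallothionein and zinc genes, 4 were called lower (40%, against 9.71% of all genes), with a median of -1.04. MT1X stood at 13.32, 13.46 and 13.61 and then at 11.74, 11.65 and 13.10 (-1.3 ± 0.39, adjusted p = 0.0172). Metallothionein genes are near-identical in sequence, so their probe sets may not be separate measurements, and the count was 0 without 12 h replicate 3, 48 h replicate 1 or 48 h replicate 2 and 8 without 48 h replicate 3. Of 31 respiratory chain genes, 4 fell (12.9%, near the 9.71% of all genes), with ATP5MC1, a subunit of the ATP synthase ring, at 9.34, 9.61 and 9.55 and then at 8.23, 7.93 and 8.91 (-1.14 ± 0.27, adjusted p = 0.00273), and 7 fell without 48 h replicate 3. Of 30 ribosome biogenesis genes 4 fell (13.3%, also near that share) and none rose (median -0.23), led by RRS1 (-0.99, adjusted p = 0.0115), a count of 2 without 12 h replicate 1 and 1 without 12 h replicate 3 or 48 h replicate 1. Of 20 cytosolic ribosomal protein genes none passed the test (median 0.04, all between -0.12 and 0.25).

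Cholesterol, matrix, YAP, inflammatory and glucocorticoid lists had medians between -0.23 and 0.1. Called in either direction were 21.1% of cholesterol, 11.4% of matrix, 18.2% of YAP and Hippo and 26.7% of glucocorticoid genes. The share was 6.25% for interferon-stimulated genes and 19.8% for all genes. Called lower were 18.2% of YAP and Hippo and 20% of glucocorticoid genes, against 9.71% of all genes. Of 19 cholesterol synthesis and uptake genes 2 fell and 2 rose (median -0.23): HMGCS1, the synthase that feeds the pathway, stood at 11.74, 11.69 and 11.18 and then at 9.44, 10.53 and 11.06 (-1.19 ± 0.39, adjusted p = 0.0265), and its call was lost without 12 h replicates 1 or 2 or 48 h replicate 1. EBP, a sterol isomerase, fell by 1.11 (adjusted p = 0.00268), a call that held whichever array was left out, and its other 2 probe sets changed by -1.06 and -0.62. Of 35 matrix and TGF-beta response genes 3 fell and 1 rose (median -0.15), and THBS1, or thrombospondin, stood at 9.15, 9.59 and 9.69 and then at 5.06, 7.29 and 7.87 (-2.74 ± 0.95, adjusted p = 0.0368), a call lost without any 12 h array or without 48 h replicate 1 or 2, and its other 2 probe sets changed by -3.34 and -1.73. Of 22 YAP target and Hippo genes 4 fell, with the coactivator WWTR1, or TAZ, at -1.16 (adjusted p = 0.0114, and at -1.78 and -1.59 on its other probe sets), 1 without 12 h replicate 3 and 0 without 48 h replicate 1. None of 24 cytokine and NF-kB target genes was called, and of 32 interferon-stimulated genes 2 fell, OAS3 (-1.66, adjusted p = 4.09e-05) and BST2 (-0.62, adjusted p = 0.0195), of which the first held whichever array was left out. Hydrocortisone was in the medium, and of 15 glucocorticoid targets 1 rose, TSC22D3 or GILZ (1.68, adjusted p = 0.00849, lost without 48 h replicate 1), and 3 fell, with SGK1 at -2.13 (adjusted p = 0.0168, lost without 12 h replicate 3 or 48 h replicate 1). FKBP5 stood at 10.80, 10.92 and 10.83 and then at 10.62, 10.26 and 10.18 (-0.5 ± 0.28, adjusted p = 0.221).

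Kidney genes were called at about the share of all genes. Of 42 proximal tubule transport and brush border genes, 19 were above the low filter in the series, 1 rose and 2 fell (15.8% called, against 19.8% of all genes), with a median of 0.01. MIOX, the myo-inositol oxygenase of the renal tubule, rose from 8.73, 8.32 and 8.24 to 10.17, 9.92 and 9.57 (1.46 ± 0.31, adjusted p = 0.00128). Ezrin (EZR), which anchors microvilli, fell from 12.14, 12.13 and 12.19 to 11.58, 11.71 and 11.46 (-0.57 ± 0.14, adjusted p = 0.00487). Both calls held whichever array was left out, while that of the carnitine carrier SLC22A5 (-0.88, adjusted p = 0.0251) held only without 12 h replicate 2. Among 23 kidney injury markers 4 were called (17.4%). SOX9, a transcription factor of tubule repair, fell from 8.47, 9.00 and 8.61 to 4.57, 4.94 and 4.91 (-3.89 ± 0.8, adjusted p = 0.000913). VCAM1 fell by 1.83 (adjusted p = 0.0424, lost without any 1 of the 6 arrays), and GDF15 and CDKN1A rose, as described above. HAVCR1, or KIM-1, stood at 10.78, 10.39 and 10.55 and then at 9.71, 9.98 and 10.66 (-0.46 ± 0.37, adjusted p = 0.422). LCN2, or NGAL, was near the floor in all arrays but 48 h replicate 1, at 6.56 (0.91 ± 1.7, adjusted p = 0.768). CLU was higher at 48 h by 0.55 ± 0.29 (adjusted p = 0.193) and HMOX1 by 0.89 ± 0.71 (adjusted p = 0.415), neither of which passed the test. Among drug handling genes SULT1C2, a cytosolic sulfotransferase, rose from 8.05, 7.84 and 6.89 to 10.37, 10.38 and 10.33 (2.77 ± 0.33, adjusted p = 2.04e-06). Of 34 genes of the primary cilium 4 rose (11.8%, near the 10.1% of all genes) and none fell (median 0.4), led by BBS9 (1.57, adjusted p = 0.00143, and 1.02 on its other probe set), with 2 called without 12 h replicate 2 or 48 h replicates 1 or 2.

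The counts of several small lists moved with single arrays. Without 12 h replicate 1, without 12 h replicates 2 or 3 and without 48 h replicates 1 or 2, the G1 count called higher was 1, 0 and 0, that of kidney injury markers 1, 0 and 0, and that of apoptosis genes 1, 1 and 1. Cholesterol genes called higher were 0 without 12 h replicates 2 or 3 or 48 h replicates 1 or 2, and those called lower 1 without 12 h replicates 1 or 2 or 48 h replicate 1. Matrix genes called lower were 1 without 12 h replicates 1 or 3 and 0 without 12 h replicate 2 or 48 h replicates 1 or 2, and interferon-stimulated genes called lower were 1 without 48 h replicates 1 or 2 and 4 without 48 h replicate 3. Glucocorticoid targets called lower were 0 without 12 h replicate 3 and 1 without 48 h replicate 1, and brush border and transport genes called lower were 1 without any 48 h array.

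Some of the largest changes belonged to none of these groups. PLA1A, a phospholipase, stood at 2.89, 3.37 and 3.19, under the low filter, and then at 8.62, 7.83 and 6.85 (4.62 ± 0.7, adjusted p = 2.76e-05). LURAP1L, a cytoskeletal adaptor relative, stood at 5.43, 5.27 and 4.61 and then at 9.65, 9.08 and 7.9985 (3.81 ± 0.84, adjusted p = 0.00166). HRK, a BH3-only death gene from the apoptosis list, stood at 2.76, 2.85 and 2.97, under the low filter, and then at 6.95, 6.85 and 5.03 (3.42 ± 0.58, adjusted p = 0.000107). Its list had 3 genes called higher and 4 lower out of 24, or 29.2% in either direction against 19.8% of all genes. The count called lower was 1 without 48 h replicates 1 or 2. Downward, SLN, or sarcolipin, a small inhibitor of calcium pumps, stood at 9.96, 9.45 and 10.37 and then at 2.99, 3.98 and 7.87 (-4.98 ± 1.19, adjusted p = 0.00316), with 48 h replicate 3 nearest to 12 h. TNFAIP6, a hyaluronan-binding protein, stood at 8.25, 8.53 and 9.10 and then at 3.06, 3.88 and 5.80 (-4.38 ± 1.54, adjusted p = 0.0401), a call lost without any 12 h array or without 48 h replicate 1 or 2. NAV3 (-3.86 ± 1.07, adjusted p = 0.00994) had a 48 h mean of 3.07, under the low filter, and its call was lost without 12 h replicate 3 or 48 h replicate 1. CCBE1 (-3.1 ± 0.85, adjusted p = 0.00877), ZBED2 (-3 ± 0.8, adjusted p = 0.00746) and DPYSL3 (-2.9 ± 0.61, adjusted p = 0.00107) fell in calls that held whichever array was left out, and the other 2 probe sets of CCBE1 changed by -2.56 and -2.05.

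The CsA set has vehicle controls of its own at 12 h and 48 h, 3 arrays each, which share no array with the Fk and Ra set, and whose titles carry a laboratory number that the others lack. In them 1554 genes (13.7%) were called, 695 (6.12%) higher and 859 (7.56%) lower. Of these, 1084 were called in both sets, 511 higher and 573 lower in both, and none in opposite directions, which is 48.1% of the Fk and Ra list and 69.8% of the CsA list. Both tests used a spread pooled over all 48 arrays, so the calls are not fully independent. Without CsA control replicate 3 at 12 h the shared count was 563, without CsA control replicate 2 at 48 h 525, and without vehicle replicate 1 at 48 h of the Fk and Ra set 654. Of the 2252 genes called in the Fk and Ra set, 97.4% had the same sign in the CsA set, against 79.3% of all genes. Their median change in the CsA set was 0.72 for those higher and -0.69 for those lower, against 1.02 and -0.93 in the Fk and Ra set, where they were chosen. Across the 11356 genes, which are not independent replicates, the changes of both sets had a Pearson r of 0.824.

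**Figure D3:**
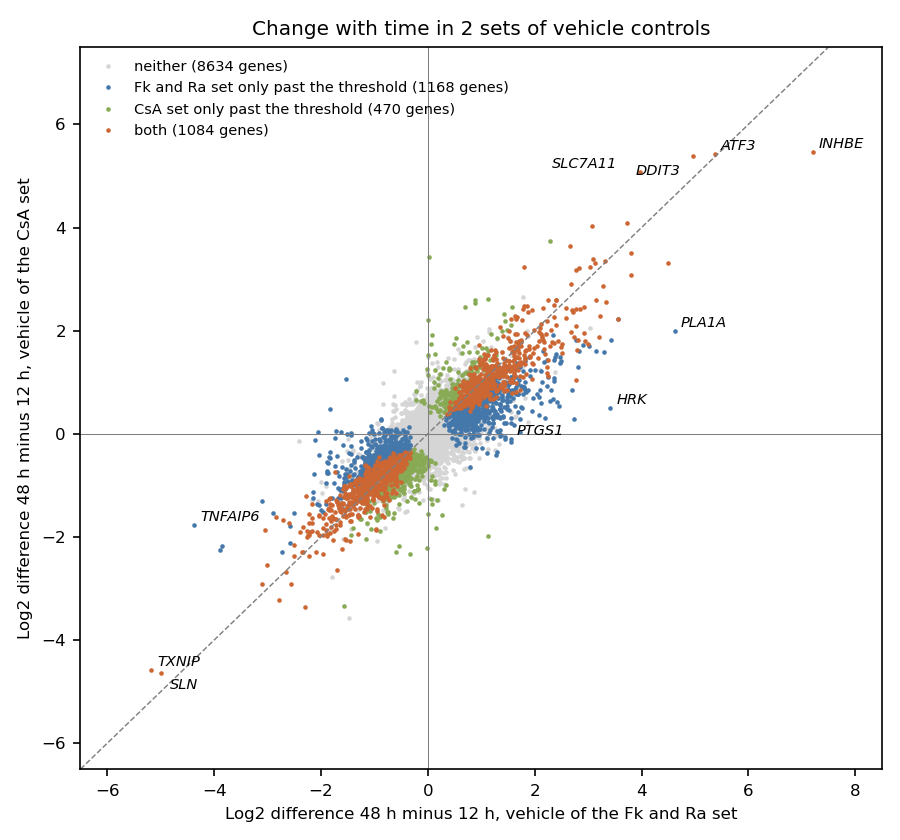
Log2 difference between 48 h and 12 h for 11356 genes in the vehicle controls of the Fk and Ra set (x axis) and of the CsA set (y axis). Orange genes were called in both (1084), blue and green genes in 1 set, grey genes in neither, and the dashed line marks equal change. The orange genes lie in the lower left and upper right of the plot, while PTGS1 lies near 0 on the y axis.

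The lists with the most calls here had these counts in the CsA set. ATF4 and CHOP targets had 26 of 37 called higher and a median of 1.53, ER genes 20 of 29 and 1.29, replication genes 35 of 44 called lower and -1.15, and mitotic genes 30 of 40 and -1.17. Over all genes 6.12% were called higher and 7.56% lower in the CsA set. Other lists had small medians of opposite sign, among them TXNIP and glucose sensing (0.19 here and -0.14 in the CsA set), glycolysis and hypoxia (0.06 and -0.02), glucocorticoid targets (0.09 and -0.03), cytokines and NF-kB targets (-0.13 and 0.09) and kidney injury markers (0.004 and -0.13). Across the alternative settings the Fk and Ra set's medians ran from 0.041 to 0.229, -0.059 to 0.113, -0.153 to 0.155, -0.365 to 0.029 and -0.025 to 0.055, in that order. These signs do not show a difference between the sets. In the CsA set INHBE changed by 5.47, DDIT3 by 5.39, SLC7A11 by 5.08, TXNIP by -4.57 and SLN by -4.63, all called. In others the CsA set's change missed the threshold, as for PLA1A (1.99, adjusted p = 0.0508), HRK (0.49, adjusted p = 0.643), SOX9 (-2.26, adjusted p = 0.0554), BHLHE41 (0.68, adjusted p = 0.214) and EZR (-0.03, adjusted p = 0.938). HRK lay under the low filter in all CsA-set controls but replicate 3 at 48 h (4.24). A threshold passed in 1 set only does not show a difference. When the difference between the sets was itself tested, 1 gene (0.00881%) passed, and 352 had an unadjusted p under 0.05. This was PTGS1, or cyclooxygenase 1, which stood at 5.74, 5.71 and 5.77 at 12 h and at 7.66, 7.38 and 6.84 at 48 h in the Fk and Ra set (1.55 ± 0.2), and changed by -0.1 ± 0.2 in the CsA set (difference 1.66 ± 0.29, adjusted p = 0.0171). The other 3 probe sets of PTGS1 changed by 0.21 to 1.09 in the Fk and Ra set. The call was lost without any of the Fk and Ra set's 12 h arrays, without its 48 h replicates 1 or 2, and without CsA control replicate 3 at 12 h or replicate 1 at 48 h. The median SE of such a difference was 0.363, which limits the differences that this test can detect.

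The vehicle controls of the Nnm set were taken at 24 h and 48 h. There limma called 0 genes, with 664 at an unadjusted p under 0.05 and a lowest adjusted p of 0.185. Of the genes called between 12 h and 48 h in the Fk and Ra set, 88.8% had the same sign between 24 h and 48 h in the Nnm set, against 69.3% of all genes, with medians of 0.23 and -0.31 for those higher and lower. INHBE changed there by 2.31 ± 0.98, DDIT3 by 1.55 ± 0.79 and TXNIP by -3.42 ± 0.76. The intervals differ between the sets, so sizes are not compared.

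The 48 h arrays were unequally far from 12 h. They were compared on the 695 genes called higher in the CsA-set controls. That choice used none of these arrays' own contrasts, though its spread was pooled over all 48 arrays, these included. The median difference from the 12 h mean was -0.08 to 0.07 in the 12 h arrays. In 48 h replicates 1 to 3 it was 1.24, 1.03 and 0.63. On the 859 genes called lower it was -0.95, -0.84 and -0.54. The Fk-treated 48 h arrays with the same numbers gave 1.26, 1.03 and 0.62 on the first genes and -0.99, -0.76 and -0.57 on the second. Deviations from the group mean correlated across genes between vehicle and Fk arrays of the same number at 48 h by 0.759 for number 1, -0.02 for number 2 and 0.584 for number 3. Whether arrays of the same number shared a plating or a day is not stated in the labels, and its part in the spread was not tested. Without 48 h replicate 3 the counts were 1284 higher and 1203 lower.

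**Figure D4:**
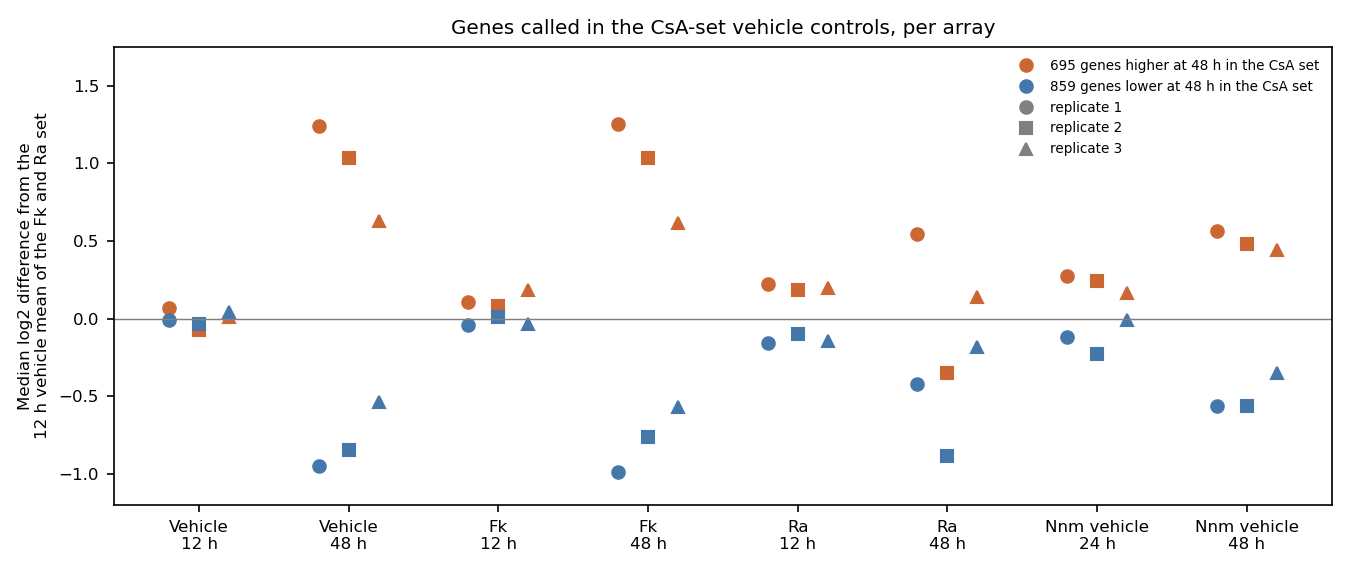
Median log2 difference of each array from the 12 h vehicle mean of the Fk and Ra set (y axis), over the 695 genes higher (orange) and the 859 genes lower (blue) at 48 h in the CsA-set controls, for 3 arrays in each of 8 groups (x axis). Symbols give the replicate. The vehicle arrays at 48 h stand at 1.24, 1.03 and 0.63 over the higher genes, and Ra replicate 2 at 48 h lies below 0 for both gene groups.

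The same interval in treated cells was set beside that in vehicle. In Fk-treated cells 2528 genes (22.3%) were called between 12 h and 48 h, with medians of 1.33 for ATF4 and CHOP targets, 0.9 for ER genes, -1.43 for replication and -1.31 for mitosis. INHBE changed by 4.22, DDIT3 by 3.74, TXNIP by -5.89 and MCM10 by -3.74. The test of the difference in time change between Fk and vehicle called 0 genes by limma (0%), with 337 at an unadjusted p under 0.05 and a lowest adjusted p of 0.412, and 2 with no filter on low values. With a median SE of 0.363 this does not show that the changes were equal.

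In Ra-treated cells 1 array at 48 h, replicate 2, stood apart, with an upper quartile of 6.203 over all probe sets, against 6.911 to 7.07 in the 6 vehicle arrays. Fewer genes were called over the same interval: 140 (1.23%), 7 higher (0.0616%) and 133 lower (1.17%), with a median over all genes of -0.2. The median over all genes was 0.06 with arrays centred on their medians and 0.01 without that array. The test of the difference between Ra and vehicle called 411 genes (3.62%), 35 (0.308%) with a more positive and 376 (3.31%) with a more negative change in Ra, a split that became 148 and 196 with centred arrays and 126 and 188 with quantile normalization. The count was 87 without Ra replicate 2 at 48 h (34 and 53), 1479 without Ra replicate 1 at 48 h, 83, 190 and 259 without Ra replicates 1, 2 and 3 at 12 h, 91 and 205 without vehicle replicates 2 and 3 at 12 h, and 88, 86 and 977 without vehicle replicates 1, 2 and 3 at 48 h.

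ATF4 and CHOP targets had a median change of -0.14 in Ra (0.11 centred, 0.15 without the array that stood apart), against 1.67 in vehicle, and 13 of 37 differed by the test, all more negative in Ra (13 centred, 5 without that array). ER genes stood at -0.22 (0.04 centred), with 7 of 29 more negative in Ra (5 centred, 1 without that array). Replication genes stood at -0.41 (-0.15 centred) and mitotic genes at -0.35 (-0.09 centred), with 2 of 44 and 0 of 40 more positive in Ra (6 and 1 centred). Over all genes the uncentred test called 3.31% more negative and 0.308% more positive in Ra. INHBE changed by -0.3 in Ra, a difference from vehicle of -7.51 (adjusted p = 0.00347, and 0.0199 without that array). ALDH1L2 changed by -1.77 (difference -5.5, adjusted p = 0.00062), ANK2, an ankyrin, by -1.91 against 3.55 in vehicle (difference -5.47, adjusted p = 3.26e-05), and SLC7A11 by -0.92 (difference -4.89, adjusted p = 0.0112, and 0.0525 without that array). The values of ALDH1L2 and ANK2 come from the probe set with the highest mean, and the other probe set of ANK2 changed by 1.19 in vehicle. DDIT3 changed by 1.56 and ATF3 by 1.01 in Ra, and their differences from vehicle missed the threshold (adjusted p = 0.0689 and 0.135). TXNIP fell in Ra by 4.52, in Fk by 5.89 and in vehicle by 5.18.

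**Figure D5:**
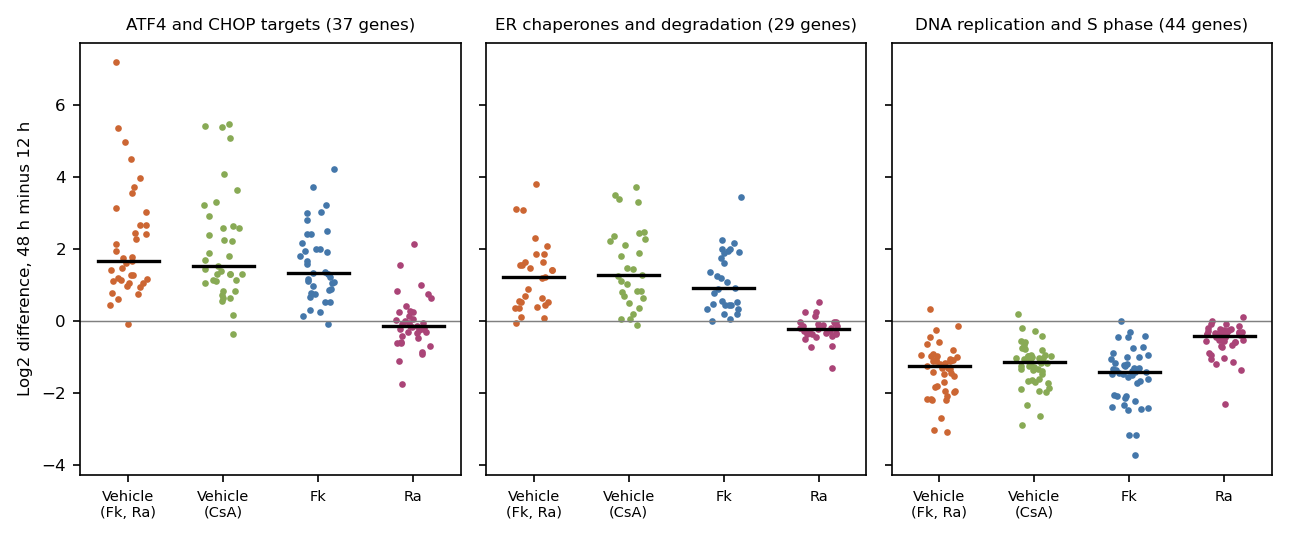
Log2 difference between 48 h and 12 h (y axis) of each gene above the low filter in 3 lists (panels), in vehicle of the Fk and Ra set, vehicle of the CsA set, Fk and Ra (x axis), with black bars at the medians. Medians for ATF4 and CHOP targets are 1.67, 1.53, 1.33 and -0.14, with Ra at 0.11 when arrays are centred.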

How the data were processed

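The values deposited by the authors are on a log2 scale, for 54675 probe sets on each of 48 arrays, and GCRMA is named in the submitters' processing notes. Probe sets with 1 gene symbol (41091) that exceeded log2 4 in at least 3 arrays (20960) were kept, and the probe set of highest mean stood for each of 11356 genes. The main fit was limma (version 3.58.1, R 4.3.3): 1 mean per group over all 48 arrays, eBayes, two-sided tests, Benjamini-Hochberg adjustment over all genes. Having 3 arrays per group limits the precision. The fit was first run on simulated data with independent noise and 1 spread per gene for all groups. The real groups differed in spread, so this run checks the code and not the calls made here.

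Named genes were the 10 largest non-overlapping called rises and falls, up to 3 called members with the largest change in each list, up to 4 called in each direction for differences between comparisons, and 20 further genes named in the rule, of which 1 is not reported here. Members of lists given only by their change illustrate a count. The groups, lists and rule were chosen with earlier results of these data known. The main fit did not pair 12 h with 48 h by replicate number. Deviations of same-numbered arrays correlated by 0.017, -0.027 and 0.055, which cannot settle whether they shared a culture. Alternatives were scaling, filter, arrays in the fit, probe set choice, replicate block, prior and leaving out each array.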

Additional observations from a re-analysis of the deposited data

Results flagged for a closer look

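Between the vehicle controls of the Fk and Ra set and of the CsA set, the test of the difference in time change called 1 gene, PTGS1, with a difference of 1.66. Between Ra-treated and vehicle-treated cells it called 411 genes. The genes with the most negative differences were INHBE (-7.51), ALDH1L2 (-5.5), ANK2 (-5.47) and SLC7A11 (-4.89). Those with the most positive were TM4SF4 (2.76), MAP3K6 (2.19), SKP2 (2.12) and TM4SF18 (1.91). TM4SF4, a tetraspanin relative, fell in vehicle from 6.34, 6.30 and 6.59 to 4.17, 2.78 and 5.35 and changed by 0.45 in Ra. MAP3K6, a stress kinase, fell in vehicle by 2.23 and changed by -0.04 in Ra, and TM4SF18 fell in vehicle by 2.22 and changed by -0.31 in Ra. Without Ra replicate 2 at 48 h, the differences of TM4SF4 and MAP3K6 missed the threshold (adjusted p = 0.0826 and 0.0589, limma). With 3 arrays per group, no test of single outlying arrays was made.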

How the results depend on the processing

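The counts of genes higher and lower at 48 h were within 1.5 times of 1149 and 1103 under all alternatives except leaving out arrays, which gave 563 to 1284 and 545 to 1203, and the replicate block, which gave 1729 and 1672. Same-numbered vehicle arrays of 12 h and 48 h had correlations of deviations of 0.017, -0.027 and 0.055. Within a time, 14 of 18 same-numbered pairs of the Fk and Ra set exceeded 0.1. Not every pair did: at 48 h vehicle and Ra gave 0.252, -0.178 and 0.0888. The replicate block gave each number of a set 1 effect shared by all its times. It does not model sharing within a time alone, so its counts do not settle how same-numbered arrays are related. The count shared with the CsA set, 1084, was 1764 with vehicle arrays alone, 1940 with the replicate block, and 525 to 1203 with arrays left out. The difference between the sets, 1 gene, was 0 with quantile normalization or the probe set of highest standard deviation, 2 with no filter, 7 with the replicate block and 0 to 2 with arrays left out. The Fk difference, 0 genes, was 2 with no filter, 0 with the replicate block and 0 to 1 with arrays left out. The Ra difference, 411 genes, was 23 with the Fk and Ra set alone, 261 with the probe set of highest standard deviation, 1339 with the replicate block and 83 to 1479 with arrays left out. MAF, a renal transcription factor that rose by 0.97, changed by -0.55 on the probe set of highest standard deviation, and CYP1B1 has 1 further probe set of opposite sign (0.01). The cause was not tested in any of these cases. Signal near log2 4 limits the size of any change.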
